A study of Apis mellifera with 12 samples.

Results

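Ovaries of honey bee (Apis mellifera) queens that had been stopped from laying by 7 days in a cage were compared with ovaries of normally laying queens, across circular RNAs (circRNAs) and across stretches of genome that give rise to several of them. All 20244 circRNAs in the deposited table entered a filter on low counts, and the 3215 that passed are described here, in the 6 libraries of 12 that belong to these groups. They were joined into 1654 loci, a locus being a set of tested circRNAs whose spans overlap by at least 1 base on one strand. Of these loci, 1081 held a single circRNA, and the other 573 held 2134 circRNAs.

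The laying group held 3 ovary samples from queens described as normal and laying eggs, with no treatment named. The caged group held 3 samples from queens whose laying was inhibited by shutting each in a cage inside its original colony, with ovaries taken at the end of day 7. The remaining libraries, 3 of each, came from virgin queens and from released queens, which were let out after 7 days and sampled on day 8 when they laid again. Their values are given only as context, although all 12 libraries enter the fit. The labels give no strain, mating history or age in days, and nothing in them says whether each sample came from a queen of its own or from a pool. The p-values therefore measure the spread between these samples, which may be technical. Caging restricts a queen's movement as well as her laying, and these cannot be told apart here.

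A circRNA forms by back-splicing, in which a splice donor is joined to an acceptor that lies upstream of it, and the closed ring resists RNase R, an exonuclease that removes linear RNA. One gene can give many rings, because a donor can be joined to several acceptors and an acceptor to several donors. Rings are called short or long here by the distance on the genome between their listed ends. The length of the ring itself was not measured. The queen's ovary is a bundle of ovarioles, in which oocytes grow beside nurse cells and inside a layer of follicle cells, and a laying queen moves eggs through all these stages at once. Host genes are not paired with circRNAs in the table, so rings are given by name and position in genome build Amel_4.5, and their roles and the marker genes of the tissue are not analysed here. A change in bulk ovary can come from fewer cells of a type or from less RNA per cell, which cannot be told apart, and linear RNA of the same loci was not measured.

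The laying libraries held 133403, 173922 and 89106 circRNA reads and the caged libraries 206697, 170382 and 176237, so every caged library but one was deeper than every laying library. The tested circRNAs took between 95.3% and 96.7% of the reads of these 6 libraries. Levels are given in CPM, which scales the reads of a circRNA by all circRNA reads of its library, with no length term. Fold changes come from a fit that scales libraries by TMM and so differ from the ratio of the CPM beside them. Counts of 1 do not occur in the table, so a value of 0 means not listed, and where all 3 libraries of a group are at 0 the fold is left out. A feature was called when its p, adjusted by the Benjamini-Hochberg method over all features tested, was under 0.05 in edgeR's quasi-likelihood test.

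For nearly all circRNAs no difference between caged and laying ovaries passed the threshold. Of 3215 tested, 3 were called, 2 higher and 1 lower in caged ovaries, which is 0.0933%. The median fitted log2 fold change was 0.09, with 1759 above 0 and 1449 below. At an unadjusted p under 0.05, 194 were higher (6.03%) and 83 lower (2.58%), and by DESeq2 157 were higher and 105 lower. By CPM, without TMM scaling, the 3 caged libraries lay wholly above the 3 laying libraries for 304 circRNAs (9.46%) and wholly below them for 243 (7.56%). For 414 circRNAs the 95% interval of the fold change kept inside 2-fold, up or down, and for 1469 inside 4-fold. For 46 of the 3215 it was wholly beyond 2-fold. The other circRNAs were measured too loosely for a change of 4-fold to be set aside. These intervals are not adjusted for the number of circRNAs tested. The 46 include rings at 0 in every library of a group, such as ame_circ_0017709, whose interval depends on the prior count and is not that of a measured fold.

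**Figure D1:**
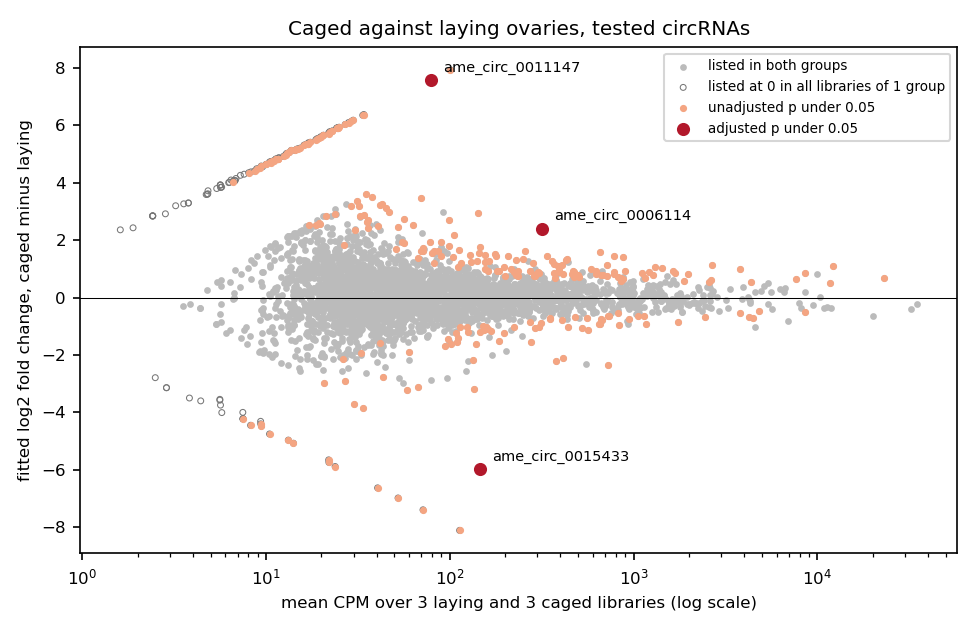
Fitted log2 fold change (caged minus laying) against mean CPM over the 6 libraries (log scale) for each of 3215 tested circRNAs. The 3 called circRNAs are named, and the 2 slanted bands hold circRNAs listed at 0 in all libraries of 1 group, whose fitted change depends on the prior count and is not a measured fold.

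The circRNA ame_circ_0006114 (LG15, 3022811 to 3027767, minus strand) was the called circRNA with reads in all 6 libraries. The laying libraries held 22, 11 and 7 of its reads, or 165, 63.2 and 78.6 CPM, and the caged libraries 45, 140 and 98 reads, or 218, 822 and 556 CPM. The groups did not overlap, but caged replicate 1 was closer to the highest laying library than to the other caged ones. It rose 5.29-fold (log2 fold change 2.40, SE 0.45, 95% interval 1.48 to 3.33, adjusted p = 0.0157). The call was lost without laying replicate 2 (log2 fold change 2.14, adjusted p = 0.119) and without caged replicate 2 (1.95, adjusted p = 0.0891). It was also lost with only the laying and caged libraries (edgeR, adjusted p = 0.138) and with a replicate block (adjusted p = 0.0619). By limma on log2(CPM + 1) none of the 3 called circRNAs passed (adjusted p = 0.132 for each). Virgin libraries held 616, 361 and 579 CPM and released libraries 244, 183 and 243 CPM.

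This circRNA, ame_circ_0006114, is 1 of 10 in a locus on LG15 (3011219 to 3057596, minus strand), and its neighbours were not called. ame_circ_0006115, which has the same listed start, was at 149.9, 115 and 67.3 CPM in laying and 194, 176 and 261 CPM in caged libraries (unadjusted p = 0.0258, adjusted p = 0.459). ame_circ_0006118, which has the same listed end, was at 29.98, 28.7 and 67.3 CPM in laying and 48.4, 164 and 153 CPM in caged libraries (adjusted p = 0.368). Going the other way, ame_circ_0006110 was at 44.98, 97.7 and 0 CPM in laying libraries and was not listed in any caged one (adjusted p = 0.332). In all, 4 of the 10 were higher and 1 lower at an unadjusted p under 0.05, beside 6.03% and 2.58% of all tested. Their summed count missed the threshold (log2 fold change 0.77, adjusted p = 0.0870), and ame_circ_0006114 was not called against its locus (relative log2 fold change 1.15, adjusted p = 0.578).

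The other called circRNA that was higher, ame_circ_0011147 (LG2, 13345342 to 13346062, plus strand), was not listed in any laying library. It had 43, 14 and 32 reads in the caged libraries, or 208, 82.2 and 182 CPM (edgeR, adjusted p = 0.0125). Virgin libraries held 49.6, 75.2 and 67.2 CPM, and released libraries 0, 109.8 and 63.0 CPM, so the laying group was the one group in which it was listed nowhere. The adjusted p was 0.0762 without laying replicate 2. No other listed circRNA shares its start or end.

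The circRNA that fell, ame_circ_0015433 (LG5, 5907191 to 5908645, plus strand), was listed in every laying library and almost nowhere else. It had 43, 59 and 18 reads in them, or 322, 339 and 202 CPM, and 0, 2 and 0 reads in the caged libraries. It was not listed in any virgin library and had 18.3 CPM in 1 released library. It passed the filter on low counts only through the laying libraries, the group where it was high. The fitted log2 fold change was -5.98 (SE 0.92, 95% interval -7.87 to -4.09, adjusted p = 0.00254), and its size rests on the 2 reads of caged replicate 2. Without that library all caged values are 0, and the fitted value of -8.39 is set by the prior count. Without laying replicate 2 it was -5.79 (adjusted p = 0.0762). A second circRNA with the same listed end, ame_circ_0015434, had reads in laying replicate 1 only among the 6 libraries.

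**Figure D2:**
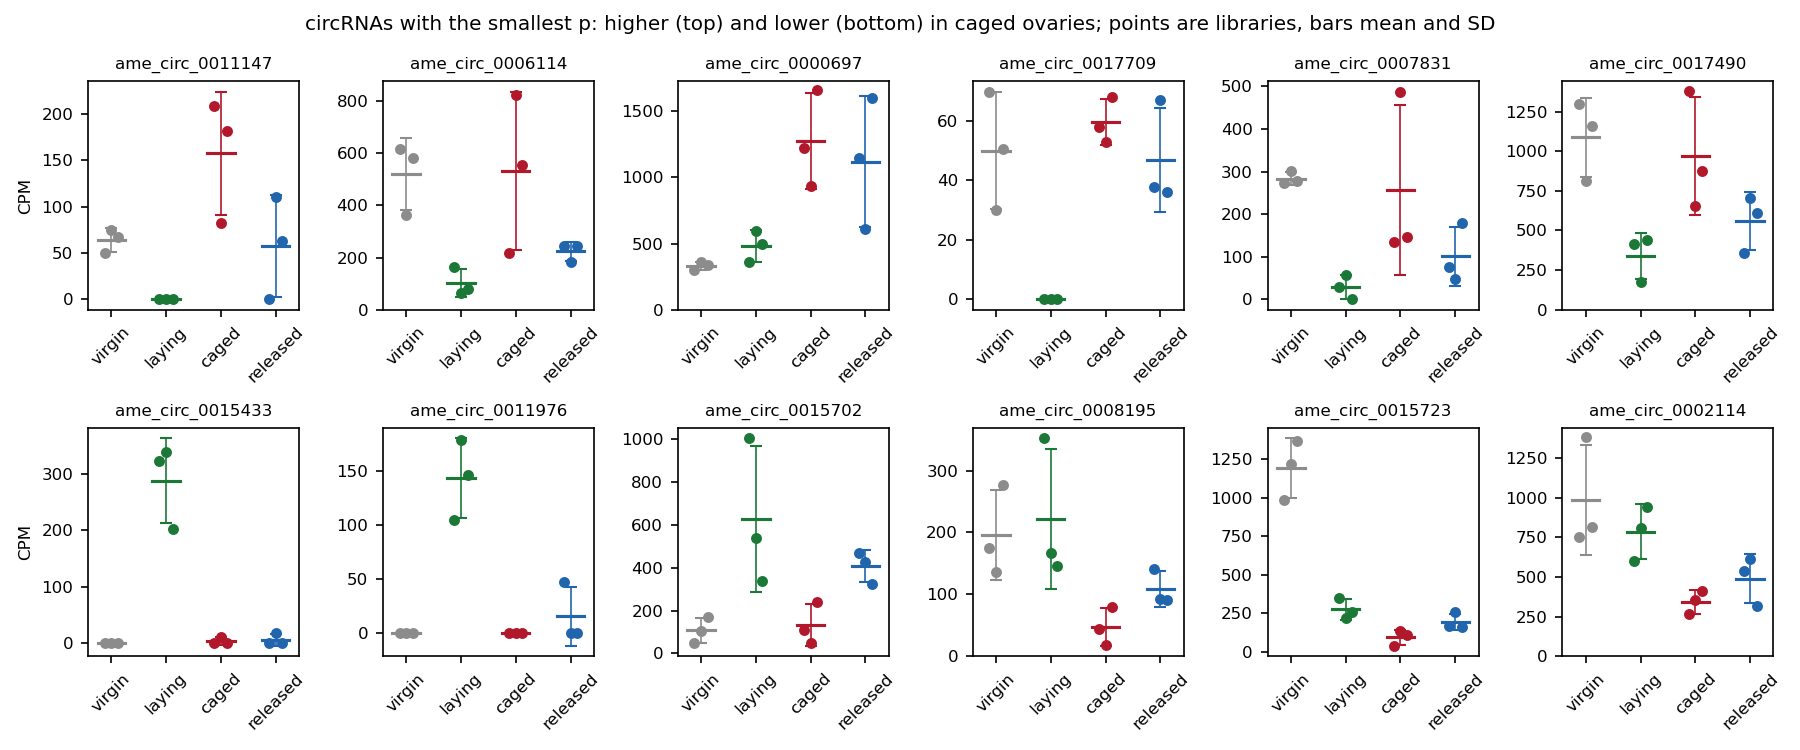
CPM in each library (points) with the group mean and SD (bars) for the 6 circRNAs with the smallest p in each direction among those whose caged and laying libraries do not overlap. The top row is higher and the bottom row lower in caged ovaries, and of these 12 only ame_circ_0011147, ame_circ_0006114 and ame_circ_0015433 were called.

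The circRNAs next in order of p, among those whose caged and laying libraries do not overlap, did not pass the threshold and are given as values. Those with higher levels in caged libraries included rings of moderate abundance. ame_circ_0000697 (LG10, 10481070 to 10481463, plus strand) was at 359.8, 598 and 494 CPM in laying and 1224, 939 and 1657 CPM in caged libraries, a fitted 2.69-fold difference (95% interval of the log2 value 0.79 to 2.06, adjusted p = 0.0576). ame_circ_0017490 (LG7, 3190629 to 3196043, plus strand) was at 412, 172 and 438 CPM in laying and 1379, 651 and 874 CPM in caged libraries (3.01-fold, adjusted p = 0.0886). The caged values of both lay clear of the laying values, as the rule for naming them required. ame_circ_0001506 (LG10, 6229730 to 6246217, minus strand) had more reads than either, with 2744, 3013 and 1942 CPM in laying and 5099, 5511 and 4454 CPM in caged libraries, and its fitted log2 difference was 1.00 (SE 0.25, adjusted p = 0.0886).

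Some of the rarer ones were near 0 in laying ovaries. ame_circ_0007831 (LG1, 10338636 to 10339043, plus strand) was at 29.98, 57.5 and 0 CPM in laying and 135, 487 and 148 CPM in caged libraries (7.66-fold, adjusted p = 0.0874). ame_circ_0001268 (LG10, 4446416 to 4452709, minus strand) was listed in laying replicate 3 alone, at 44.9 CPM, and was at 174, 70.4 and 131 CPM in caged libraries (adjusted p = 0.111). ame_circ_0012960 (LG3, 5977049 to 5977429, minus strand) was even among laying libraries, at 187, 195 and 168 CPM, and uneven among caged ones, at 731, 223 and 516 CPM (2.73-fold, adjusted p = 0.0886). Its caged replicate 2 was just above the highest laying value. ame_circ_0019277 and ame_circ_0008980, whose values are given with their loci, had fitted differences of 3.05-fold (adjusted p = 0.0886) and 2.24-fold (adjusted p = 0.104).

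Among those with lower levels in caged libraries, the LG5 ring ame_circ_0015702 (9141630 to 9145087 on the plus strand) had 1004, 540.5 and 337 CPM in laying and 111, 47.0 and 238 CPM in caged libraries (fitted log2 difference -2.21, SE 0.48, adjusted p = 0.0874). The LG1 ring ame_circ_0008195 (12614353 to 12618270 on the minus strand) had 352, 167 and 146 CPM in laying and 43.5, 17.6 and 79.4 CPM in caged libraries (log2 difference -2.19, adjusted p = 0.0874). ame_circ_0015723 (LG5, 9321483 to 9342234, minus strand) was at 352, 218 and 258 CPM in laying and 38.7, 135 and 108 CPM in caged libraries (log2 difference -1.53, adjusted p = 0.104). The groups did not overlap for any of these, as the rule for naming them required, and the first had the laying libraries farthest apart. ame_circ_0002114 (LG11, 11325617 to 11325840, minus strand) had a tighter laying group at 599.7, 811 and 943 CPM, against 266, 352 and 414 CPM in caged libraries (log2 difference -1.14, adjusted p = 0.112).

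Among the lower ones were 3 short rings whose laying libraries were close together. ame_circ_0012124 (LG2, 9972218 to 9972408, minus strand) was at 202, 213 and 202 CPM in laying and 58.1, 88.0 and 113 CPM in caged libraries (adjusted p = 0.203). ame_circ_0015609 (LG5, 7782405 to 7782678, minus strand) was at 727, 736 and 685 CPM in laying and 194, 393 and 419.9 CPM in caged libraries (adjusted p = 0.222). ame_circ_0014988 (LG5, 14022521 to 14022945, minus strand) was at 1979, 2651 and 2199.6 CPM in laying and 1427, 1144 and 1112 CPM in caged libraries (log2 difference -0.85, SE 0.24, adjusted p = 0.156). The remaining named one outside a called locus was the longer ame_circ_0013138 (8335083 to 8338916 on the plus strand of LG3), with 239.9, 213 and 179.6 CPM in laying and 43.5, 99.8 and 56.7 CPM in caged libraries (adjusted p = 0.203).

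Between caged and laying ovaries, rings listed in every library of one group and in none of the other were mostly those of the caged group. In the 6 libraries 2004 of the tested circRNAs were listed in all, 36 in every caged and no laying library, and 3 in every laying and no caged library. These counts move with the depth of the libraries, which was greater in the caged group, and the part of depth in them was not tested. A ring at 0 in a whole group passed the filter through libraries of other groups. Some passed only with the group where they were high, such as ame_circ_0011976 (laying) and ame_circ_0011715 (caged). Of the 194 circRNAs that were higher at an unadjusted p under 0.05, 56 were listed at 0 in all laying libraries. Of the 83 lower ones 14 were at 0 in all caged libraries. Over all 3215 tested circRNAs, 94 were listed in some caged and no laying library, and 27 in some laying and no caged library. The 36 had caged means between 12.5 and 201 CPM with a median of 37.7, and no library held more than 50 reads of any of them. Of these 36, 31 were listed in a virgin and 27 in a released library. The same counts over all tested rings were not made.

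The 4 most abundant of the 36 were ame_circ_0011715, ame_circ_0011147, ame_circ_0017709 and ame_circ_0008870. ame_circ_0017709 (LG7, 6752032 to 6752552, plus strand) had caged values of 58.1, 52.8 and 68.1 CPM, closer together than those of the called ame_circ_0011147 (adjusted p = 0.0874). ame_circ_0008870 (LG1, 19941352 to 20020861, plus strand) had caged values of 48.4, 58.7 and 68.1 CPM and was listed in 1 released library (adjusted p = 0.128). The rare ame_circ_0003849 (LG12, 852259 to 852646, minus strand) had 9.68, 82.2 and 39.7 CPM in caged and 114, 135 and 378 CPM in virgin libraries (adjusted p = 0.111). The 3 listed in laying but not in caged libraries were ame_circ_0011976 (LG2, 7731130 to 7732227, minus strand), with laying values of 105, 178 and 146 CPM (adjusted p = 0.0576), and the rarer ame_circ_0009395 and ame_circ_0016569, with means of 43.9 ± 18.2 and 28.2 ± 14.7 CPM (SD, n = 3). Each of the 3 was listed in at least 1 released library.

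None of the 8 circRNAs with the most reads was called. ame_circ_0011734 (LG2, 4758065 to 4774296, plus strand) was at 27331, 34952 and 52926 CPM in laying and 28351, 37023 and 28802 CPM in caged libraries, with overlapping groups (fitted log2 difference -0.24, 95% interval -0.96 to 0.48, adjusted p = 0.930). Its sign turned without laying replicate 3 (0.038). ame_circ_0000149 (scaffold GL630373.1, 79029 to 79584, minus strand) was at 37623, 34084 and 39975 CPM in laying and 19502, 31154 and 31917 CPM in caged libraries (log2 difference -0.39, 95% interval -0.79 to 0.01, adjusted p = 0.592). Its groups did not overlap, and caged replicate 1 was well below the other caged libraries. ame_circ_0006346 (LG15, 5368191 to 5375154, minus strand) had the widest fitted difference of the 8, with 8321, 11275 and 4119 CPM in laying and 20291, 12777 and 16489 CPM in caged libraries (2.13-fold, 95% interval of the log2 value 0.05 to 2.13, adjusted p = 0.531).

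The other 5 abundant rings had fitted log2 differences between -0.63 and 0.67. ame_circ_0017693 (LG7, 640672 to 648915, minus strand) was at 21851, 17565 and 14567 CPM in laying and 35898, 25836 and 21636 CPM in caged libraries (adjusted p = 0.569). ame_circ_0006312 (LG15, 5011343 to 5011735, plus strand) ranged from 12233 to 33073 CPM in laying and from 7842 to 21776 CPM in caged libraries (adjusted p = 0.774). ame_circ_0009157 and ame_circ_0002247 were lower in every caged than in every laying library, at 10184 ± 261 against 13514 ± 1456 CPM and at 9868 ± 1106 against 12698 ± 473 CPM (SD, n = 3 each), with adjusted p = 0.628 and 0.696. ame_circ_0019210 belongs to a locus described with the loci.

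Summed over loci, 14 of 1654 were called (0.846%), 10 higher and 4 lower in caged ovaries. At an unadjusted p under 0.05 there were 183, of which 125 were higher. The median log2 fold change of loci was 0.07. Of the 14, 6 held 1 circRNA, so their sum is the value of that ring. These are the called ame_circ_0011147 and ame_circ_0015433 and the circRNAs ame_circ_0011976, ame_circ_0017709, ame_circ_0007831 and ame_circ_0012960, which passed only as loci. Loci had a fit of their own and an adjustment over fewer tests, so both p and adjusted p differ from those of the rings. The other 8 held 2 to 10 circRNAs each, 6 of them higher and 2 lower. Of the 14, 1 was called in each of the 6 fits that leave out a laying or caged library, 1 in 5, 1 in 3, 5 in 2, 4 in 1 and 2 in none of them. With a replicate block 5 of the 14 were called, and by limma on log2(CPM + 1) none.

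**Figure D3:**
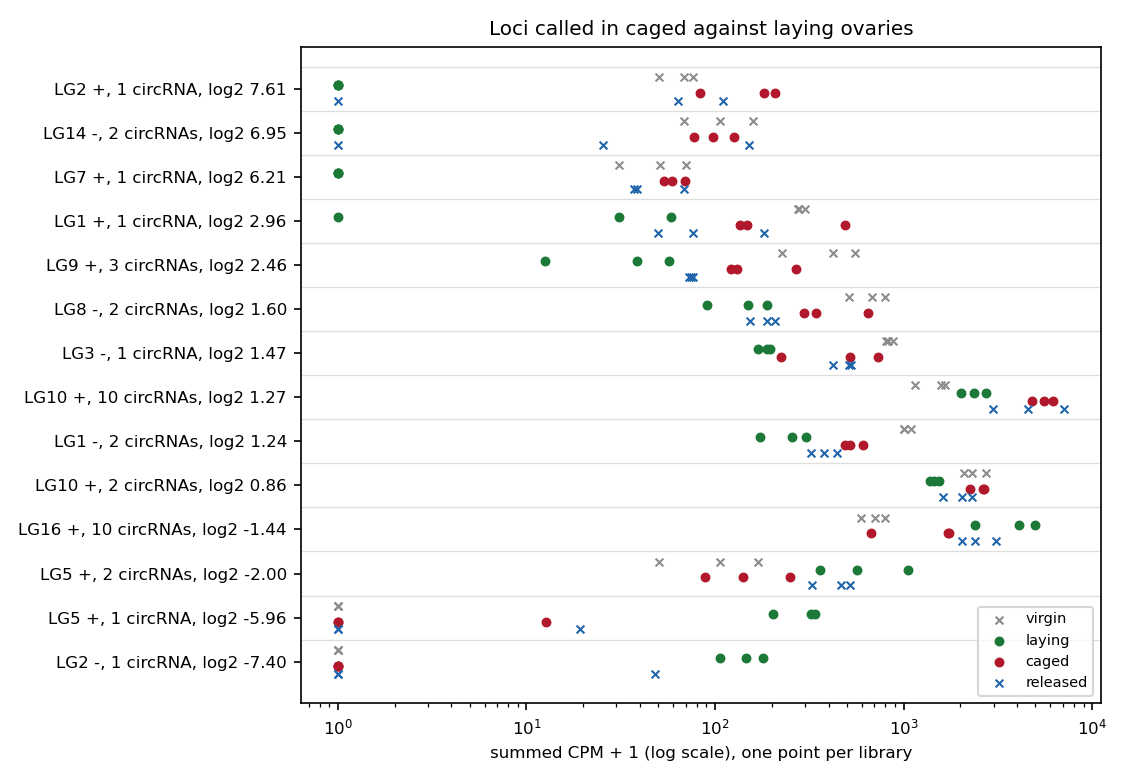
Summed CPM plus 1 (log scale) of the 14 called loci, with a point for each library in the 4 groups. The fitted log2 fold change (caged minus laying) stands beside the locus, and for the loci with all laying or all caged points at 0 CPM it depends on the prior count.

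The locus on LG10 from 10466595 to 10490353 (plus strand) was the one with the most circRNAs among the higher loci. Its 10 rings summed to 2361, 2748 and 2020.1 CPM in laying and 5573, 4801 and 6168 CPM in caged libraries, so every caged library was well above every laying one. It rose 2.41-fold (log2 fold change 1.27, SE 0.25, 95% interval 0.75 to 1.80, adjusted p = 0.0275). All 10, which are not independent, had a fitted change above 0, and 3 of them an unadjusted p under 0.05, beside 6.03% of all tested rings. Most of its reads belonged to ame_circ_0000699 (10481070 to 10483616), at 1792, 1961 and 1313 CPM in laying and 3817, 3293 and 3790.3 CPM in caged libraries (adjusted p = 0.112), and to ame_circ_0000697, which starts at the same base. The third with a low p, ame_circ_0000685 (10477389 to 10478725), was at 135, 69.0 and 78.6 CPM in laying and 155, 258 and 233 CPM in caged libraries. The locus kept its call without caged replicate 2 (adjusted p = 0.0368) and missed it without any of the other 5 libraries, with an adjusted p of at most 0.0778, reached without caged replicate 3. Released libraries held 4549, 2972 and 7116 CPM and virgin libraries 1663, 1143 and 1569.9 CPM.

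A second LG10 locus, from 9735389 to 9742141 (plus strand), had the smallest change of the 14 and the tightest groups. It summed to 1387, 1449 and 1537 CPM in laying and 2255, 2676 and 2638 CPM in caged libraries and rose 1.81-fold (log2 fold change 0.86, SE 0.20, adjusted p = 0.0309). Nearly all of its reads came from ame_circ_0001935 (9735389 to 9735961), and ame_circ_0001938 shares its start. The call was lost in each fit that left out 1 of the 6 libraries (log2 fold change 0.77 to 0.91, adjusted p 0.0763 to 0.149).

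On LG9, 3 overlapping rings between 3094010 and 3115408 (plus strand) together rose 5.51-fold. They summed to 37.5, 11.5 and 56.1 CPM in laying and 121, 129 and 267 CPM in caged libraries (log2 fold change 2.46, SE 0.54, adjusted p = 0.0300). In laying libraries all of this was ame_circ_0019613, and ame_circ_0019614, which has the same start, was listed in every caged and no laying library at 33.9, 23.5 and 56.7 CPM. Virgin ovaries held more of the locus, 422, 226 and 554 CPM. The call was lost when either laying replicate 1 or 2 or caged replicate 3 was left out, and its highest adjusted p, 0.179, came without laying replicate 2.

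Pairs of rings on the minus strand made up 3 more called loci. The LG1 locus from 20346106 to 20355014 summed to 255, 172 and 303 CPM in laying and 609.6, 487 and 516 CPM in caged libraries (2.36-fold, log2 SE 0.27, adjusted p = 0.0300), mostly from ame_circ_0008980. The LG8 locus from 9232591 to 9237533 summed to 187, 149 and 89.8 CPM in laying and 295, 646 and 340.5 CPM in caged libraries (3.04-fold, log2 SE 0.36, adjusted p = 0.0307), mostly from ame_circ_0019277. In each of these 2 loci both rings end at the same base and both had a fitted change above 0. The LG1 call was lost without laying replicate 1 or 2 or caged replicate 1 or 3, and the LG8 call without laying replicate 2 or 3 or caged replicate 2 or 3. Their highest adjusted p was 0.179 without laying replicate 2 and 0.193 without caged replicate 2. The LG14 locus from 517222 to 555491 was listed in no laying library and held 126, 76.3 and 96.5 CPM in caged ones (adjusted p = 0.0307). Its rings, ame_circ_0005256 and ame_circ_0005295, also end at the same base and were each in all caged libraries, at 67.7, 41.1 and 39.7 CPM and at 58.1, 35.2 and 56.7 CPM. It was called without caged replicate 2 (adjusted p = 0.0389) and missed the threshold without any of the other 5 libraries (adjusted p at most 0.138, without laying replicate 2).

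The 4 called loci of 1 circRNA that were higher are those of ame_circ_0011147, ame_circ_0017709, ame_circ_0007831 and ame_circ_0012960. The first was called in all but the fit without laying replicate 2 (adjusted p = 0.0502). That of ame_circ_0017709 was called in none of these fits (adjusted p 0.0596 to 0.148). That of ame_circ_0007831 was lost without any laying library or caged replicate 2 (adjusted p at most 0.192, without caged replicate 2), and that of ame_circ_0012960 was kept only without caged replicate 2 (adjusted p 0.00393, against at most 0.328, without caged replicate 1). Among the lower ones of 1 circRNA, that of ame_circ_0015433 was called in all 6 fits (adjusted p at most 0.0483), and that of ame_circ_0011976 was lost without laying replicate 2 or any caged library (adjusted p at most 0.148, without laying replicate 2).

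The locus on LG16 from 6919772 to 7012435 (plus strand) was the one with the most circRNAs among the lower loci. Its 10 rings summed to 4070.4, 4979 and 2379 CPM in laying and 668, 1714 and 1731 CPM in caged libraries, without overlap. It fell, with a fitted log2 fold change of -1.44 (SE 0.32, 95% interval -2.12 to -0.75, adjusted p = 0.0448), and was at 799, 707 and 596 CPM in virgin and 3083, 2379.9 and 2045 CPM in released libraries. All 10, which are not independent, had a fitted change below 0, and 5 of them an unadjusted p under 0.05, beside 2.58% of all tested rings. Without laying replicate 3, the lowest laying library, the call was kept (log2 fold change -1.73, adjusted p = 0.00441), and it was lost without any of the other 5 (adjusted p at most 0.148, without laying replicate 2).

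Several rings of this LG16 locus differ by a few bases at an end. Starts are listed at 6919772, 6919774 and 6919792, with a separate one at 6920886. Ends are listed at 7012419, 7012430 and 7012435, with a separate one at 6920989. The split of reads between such neighbours rests on the authors' calling and is uncertain, so the sum is given first. The short rings, ame_circ_0007763 (6919772 to 6920989) and ame_circ_0007771 (6919774 to 6920989), averaged 865 ± 108 and 1104 ± 366 CPM in laying against 449.6 ± 147 and 566 ± 218 CPM in caged ovaries (SD, n = 3 each). The long ring ame_circ_0007767 (6919772 to 7012430) was at 922, 736 and 359 CPM in laying and 72.6, 176 and 216 CPM in caged libraries (log2 difference -2.11, adjusted p = 0.112). Of the 5 other rings that join 6919772 or 6919774 to one of the 3 far ends, ame_circ_0007776 was at 247, 431 and 0 CPM in laying libraries and was listed in no caged one. The other 4 had 0 to 22 reads in a caged library, as in ame_circ_0007766, with 51, 50 and 13 reads in laying and 0, 14 and 22 in caged libraries (adjusted p = 0.628). ame_circ_0007791, from the separate start, was at 187, 126 and 0 CPM in laying libraries and was listed in no caged one (adjusted p = 0.207). No ring of the locus was called apart from it.

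The LG5 locus from 9141630 to 9164864 (plus strand) fell as well, from 1049, 563 and 359 CPM in laying to 140.3, 88.0 and 249.7 CPM in caged libraries (3.99-fold, log2 SE 0.43, adjusted p = 0.0300). Its change was that of ame_circ_0015702, whereas the overlapping ame_circ_0015705 (9144982 to 9164864) was at 44.98, 23.0 and 22.4 CPM in laying and 29.0, 41.1 and 11.3 CPM in caged libraries. The call was lost without laying replicate 1 or 2 or caged replicate 1 or 2 (adjusted p at most 0.105, without caged replicate 1). Just outside the threshold lay the LG5 locus of ame_circ_0015723 and the LG1 locus from 12614353 to 12618270 (minus strand), which holds ame_circ_0008195, each with an adjusted p of 0.0502.

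The loci with the most reads were not called. The LG2 locus from 4622669 to 4807227 (plus strand), with 31 rings, was at 70846, 87832 and 108017 CPM in laying and 78066, 78764 and 72391 CPM in caged libraries (log2 difference -0.15, 95% interval -0.52 to 0.23, adjusted p = 0.861). The laying libraries spread on both sides of the caged ones. The LG8 locus from 8546045 to 8600528 (minus strand) was at 36468, 28266 and 31053 CPM in laying and 35230.3, 45404 and 61026 CPM in caged libraries (1.54-fold, 95% interval of the log2 value 0.25 to 1.00, adjusted p = 0.126). Its groups overlapped through caged replicate 1. All 8 of its rings had a fitted change above 0, and 6 an unadjusted p under 0.05. Over all tested rings 6.03% were higher at such a p. The 8 rings are measured in the same libraries and are not independent. ame_circ_0019202, which spans all of it, averaged 855 ± 147 CPM under laying against 1763 ± 442 CPM under caging (SD, n = 3 each, log2 difference 1.07, adjusted p = 0.181), and the inner ame_circ_0019210 was at 9907 ± 1295 and 13523 ± 3939 CPM (0.49, adjusted p = 0.512). The LG7 locus from 630579 to 648915 (minus strand), with 9 rings all fitted above 0, averaged 27126 ± 5541 CPM under laying against 39485 ± 10543 CPM under caging (SD, n = 3 each, adjusted p = 0.448). The loci of ame_circ_0000149 and ame_circ_0006312, the others among the 5 with the most reads, had adjusted p = 0.412 and 0.719.

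Of the 573 loci of 2 or more rings, all fitted changes were above 0 in 122, all were below 0 in 109 and the signs were mixed in 342. In 26 loci at least 2 rings had an unadjusted p under 0.05, and in 18 of these all such rings were higher, in 2 all were lower and in 6 they went both ways. Over all tested rings 194 of the 277 with such a p were higher. Rings of a locus can share a donor or acceptor, so they are not independent. Apart from the LG15 locus of ame_circ_0006114, those with both directions included a locus of 3 rings on LG3 (9886251 to 9920493, plus strand). There ame_circ_0013241 was at 60.0, 57.5 and 44.9 CPM in laying and 164, 135 and 209.9 CPM in caged libraries (adjusted p = 0.188), and ame_circ_0013238, which overlaps it, was at 202, 425 and 202 CPM in laying and 159.7, 47.0 and 142 CPM in caged libraries (adjusted p = 0.329). The sum of the locus had a log2 difference of -0.38 (adjusted p = 0.762).

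To ask whether rings of one locus changed relative to each other, each of the 2134 rings in loci of 2 or more was tested against its locus. Of these, 2 were called (0.0937%), and 76 had an unadjusted p under 0.05. The test is relative, so a ring that gains makes its neighbours look lower. Its p-value uses a spread pooled over the rings of the locus, not that of the ring alone. A ring that is uneven between libraries can therefore pass here and not on its own.

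The called ring that was lower against its locus is ame_circ_0001519 (LG10, 6245885 to 6246217, minus strand), 1 of 9 in a locus from 6222009 to 6256031. It was at 1402, 1598 and 662 CPM in laying and 82.2, 170.2 and 459.6 CPM in caged libraries, which do not overlap. Against its locus its log2 change was -1.80 (edgeR's test of differential splicing, adjusted p = 0.000377). On its own, with its own spread, it was not called (log2 fold change -2.35, SE 0.93, edgeR, adjusted p = 0.507). The locus as a whole averaged 11115 ± 532 CPM under laying against 12807 ± 961 CPM under caging (SD, n = 3 each, adjusted p = 0.652). The call against the locus was lost without caged replicate 1 (relative log2 change -1.52, adjusted p = 0.0755) and without caged replicate 2 (-1.64, adjusted p = 0.0729).

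Its listed end at 6246217 is shared by 9 listed rings, among them ame_circ_0001506 and ame_circ_0001515 (6245132 to 6246217), so its share of the reads at this end was computed. Shares add up to a whole, so one ring's share can fall because another ring has more reads. ame_circ_0001519 took 16.7, 17.7 and 9.16% of them in laying and 0.828, 1.61 and 5.21% in caged libraries. ame_circ_0001506 took 32.7, 33.4 and 26.9% in laying and 51.4, 52.0 and 50.5% in caged libraries. ame_circ_0001515 took 47.7, 46.4 and 63.2% in laying and 42.0, 42.8 and 41.8% in caged libraries. The groups did not overlap for any of the 3. In CPM, however, ame_circ_0001515 was level, at 4003, 4186 and 4568 in laying and 4166, 4537 and 3683 in caged libraries (fitted log2 difference 0.003, adjusted p = 1). All reads at the end together came to 8210.3 ± 907 CPM under laying against 9779.7 ± 897 CPM under caging (SD, n = 3 each). In the released libraries ame_circ_0001519 took 16.2, 12.5 and 0.787%, so 2 of them were like laying and 1 like caged libraries, and in the virgin libraries 1.16, 1.79 and 2.77%. These shares were looked at because the ring was called, and they carry no test of their own.

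**Figure D4:**
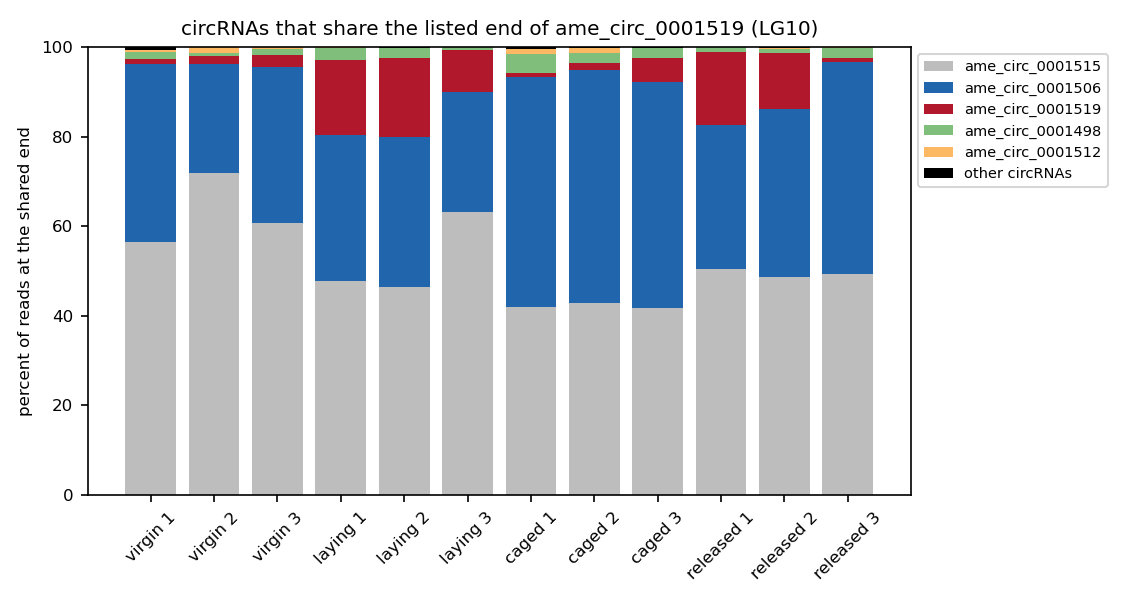
Percent of the reads at the listed end shared with ame_circ_0001519 that each ring took, as stacked bars for each of 12 libraries. The red part, ame_circ_0001519, is 9.16 to 17.7% in laying and 0.828 to 5.21% in caged libraries, and the blue part, ame_circ_0001506, is over 50% in each caged library.

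The ring that was higher against its locus is ame_circ_0011715 (LG2, 4674977 to 4699421, plus strand), in the LG2 locus with 31 rings. It was listed in no laying library and was at 237, 293 and 73.8 CPM in caged libraries. Without the caged libraries it would not have passed the filter on low counts. The call against its locus (adjusted p = 0.000119) held without each of the 6 libraries in turn (adjusted p at most 0.0220, without laying replicate 2), whereas on its own the ring had an adjusted p of 0.317. It is a small part of the reads at its listed end, 4699421, which 8 listed rings share. It took 1.86, 2.60 and 0.769% of them in caged libraries, and the short ame_circ_0011720 (4699241 to 4699421) took 81.2 ± 3.73% in laying and 83.5 ± 5.11% in caged libraries (SD, n = 3 each). The nearest tested ring at this end, ame_circ_0011716 (4681408 to 4699421), was at 997, 1190.2 and 1493 CPM in laying and 363, 493 and 1055 CPM in caged libraries (log2 difference -0.90, adjusted p = 0.709). The next, ame_circ_0011718 (4685140 to 4699421), was at 22.5, 17.2 and 44.9 CPM in laying and 266, 141 and 102 CPM in caged libraries (adjusted p = 0.416, and 0.469 against its locus). The longer ame_circ_0011709 (4622669 to 4699421) was at 1852, 1207 and 1582 CPM in laying and 609.6, 892 and 857 CPM in caged libraries (adjusted p = 0.472). ame_circ_0011715 was also uneven where it was listed outside these groups, at 376, 0 and 207 CPM in released libraries.

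Single values per library describe the whole pool of circRNAs. The distance on the genome between the listed ends of a ring, from 150 to 99048 bases, was used to sort reads into 4 classes. The bases given for a class are this distance and not the length of the ring. Rings of up to 500 bases took 22.1, 22.7 and 22.2% of the reads in laying and 18.6, 18.9 and 19.1% in caged libraries. The difference of -3.48 percentage points exceeds the SD in either group, which was 0.277 and 0.296, and the exact two-sided permutation test gave p = 0.1, the smallest that 3 libraries against 3 allow. Released libraries took 23.4, 21.6 and 21.0%, and virgin libraries 23.4, 27.3 and 24.6%. Rings of over 2000 and up to 10000 bases took 26.4 ± 0.930% of the reads in laying and 29.2 ± 1.35% in caged libraries, and those over 10000 bases 20.7 ± 0.651% and 22.3 ± 0.357% (exact permutation p = 0.1 for both, n = 3 each). Rings of over 500 and up to 2000 bases took 30.6 ± 0.448% and 29.6 ± 1.07% (exact permutation p = 0.3). The shares of the 4 classes add up to a whole, so these tests are not independent of each other. Over the 8 values per library that were tested, the lowest adjusted p was 0.2.

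**Figure D5:**
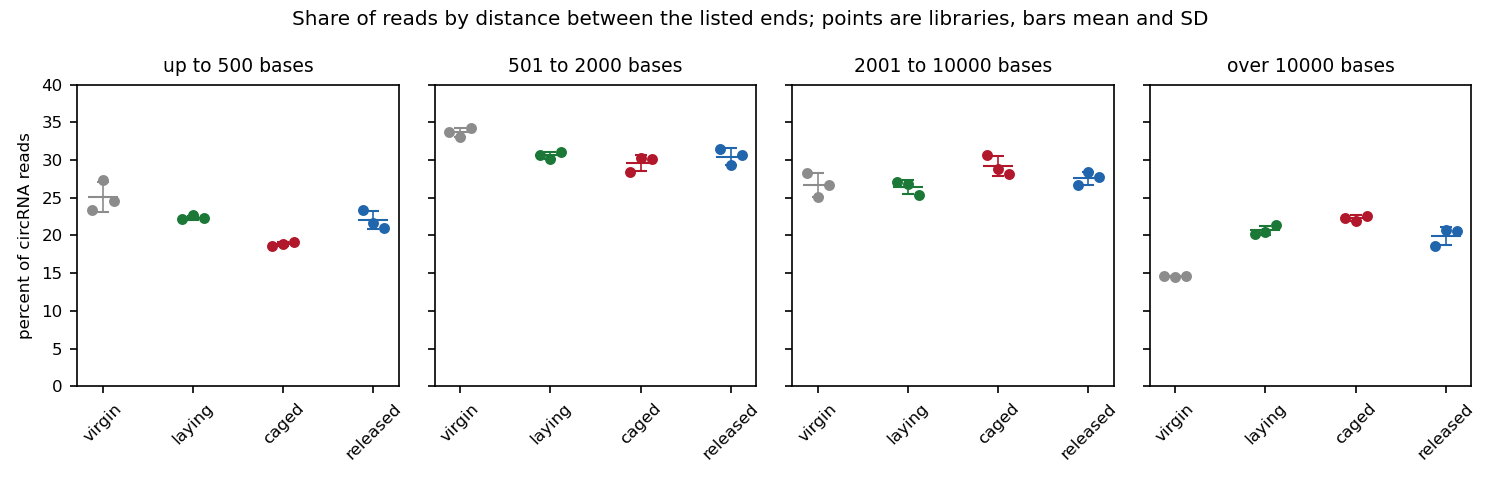
Percent of circRNA reads of each library (points) with group mean and SD (bars), by the distance between the listed ends of a ring. For up to 500 bases the caged libraries sit between 18.6 and 19.1%, below all laying, virgin and released libraries.

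The lower share of short rings was then divided among single rings. Of the 637 tested rings of this class, 367 had a lower and 268 a higher mean share in caged ovaries. The same split over all tested rings was not counted. By CPM, 75 of the 637 lay wholly lower and 47 wholly higher in caged libraries. Over all 3215 tested these counts were 243 and 304. The largest part, -0.915 of the -3.48 points, was that of ame_circ_0006312, one of the abundant rings. It was followed by ame_circ_0011802 (LG2, 4820556 to 4820912, plus strand), which took 0.681, 0.657 and 0.518% of reads in laying and 0.196, 0.483 and 0.200% in caged libraries, and by ame_circ_0011720. Without the first the difference was -2.57 points, still with no overlap, and without the first 3 it was -1.94 points with overlapping groups (exact permutation p = 0.2, n = 3 each). Without the 10 rings that lost most it was -0.894 points (exact permutation p = 0.4, n = 3 each). Choosing rings by their loss moves the difference towards 0 by itself in all 3 of these comparisons. They therefore cannot decide whether the lower share rests on a few rings. These 3 values were added after the data had been seen.

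The median fitted change of single rings was lowest in the shortest class, as was the change in read share. The other distance classes did not follow the order of the read shares. The median log2 fold change was -0.10 for the 637 rings of up to 500 bases, 0.11 for the 982 of up to 2000 bases, 0.10 for the 949 of up to 10000 bases and 0.22 for the 647 over 10000 bases, against 0.09 for all tested. At an unadjusted p under 0.05, from the shortest class to the longest, 5.65%, 6.31%, 4.85% and 7.73% were higher, beside 6.03% of all. In the same order 4.55%, 2.14%, 2.00% and 2.16% were lower, beside 2.58% of all. Rings of one locus overlap and can share splice sites, so these counts are not of independent rings.

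The concentration of reads in abundant rings and the number of rings listed were compared in the same way. The 100 most abundant rings of a library took 50.6 ± 0.504% of its reads in laying and 49.0 ± 0.857% in caged ovaries (exact permutation p = 0.1), and the 10 most abundant 19.02 ± 0.628% and 18.04 ± 0.560% (p = 0.2 by the same permutation test, n = 3 each). When each library was thinned to 89106 reads, the expected number of rings with at least 2 reads was 3745, 3645 and 3631 in laying and 3696, 3781 and 3846 in caged libraries (exact permutation p = 0.2, n = 3 each). Unthinned, the tables listed 4770, 5318 and 3631 rings in laying and 6067, 5649 and 5793 in caged libraries. Loci of 2 or more rings took 78.1 ± 0.669% of reads in laying and 78.2 ± 0.538% in caged ovaries (exact permutation p = 0.8, n = 3 each).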

How the data were processed

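Per the labels' protocols, 5 µg of ovary RNA per sample went through removal of ribosomal RNA and RNase R before directional libraries were read in paired ends. The submitters' processing notes name Bowtie; a circRNA caller was not given in the sources used here. Whole-number read counts were deposited by the authors per circRNA, with positions in Amel_4.5 per the labels. Whether starts count from 0 or 1 is not stated. Columns that the authors deposited under the heading TPM equal CPM of circRNA reads to within 4.989e-06 and are called CPM.

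The tests on counts used R 4.3.3 and edgeR 4.0.16: a robust quasi-likelihood fit over all 12 libraries with 4 group means, TMM scaling, filterByExpr with a minimum count of 5 and total of 15. Loci were built with GenomicRanges 1.54.1, and rings were tested against their locus with edgeR's diffSpliceDGE. The p-values were adjusted over all features of a fit. DESeq2 1.42.0, limma 3.58.1, other scalings and filters, a replicate block and leaving out each library were alternatives. Single values per library had exact permutation tests. The steps were tested on simulated data.

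Members, lists and rules were chosen with earlier results of these data known. Named circRNAs are those called, the 12 per direction with the smallest p among those whose libraries do not overlap, and the 8 with the most reads. Also named are up to 4 per direction listed in every caged and no laying library or the reverse, and those called against their locus. Named loci are those called, the 6 per direction with the smallest p and the 5 with the most reads. Other members of those loci were named after their values were seen. Lists of host genes and cell type markers were not run, since no genome or annotation of this build was used here. Thinning gave expected numbers. Replicate counts within a group differed beyond sampling noise (chi-square per degree of freedom 3.83 to 6.48), so all were kept. No sequencing batch is given in the labels.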

Additional observations from a re-analysis of the deposited data

How the results depend on the processing

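Named circRNAs and loci had values under 13 to 17 alternatives each and kept their direction in those, except ame_circ_0011734, which was uncalled and ran from -0.390 to 0.038 without 1 library, turning without laying replicate 3. Counts of calls depended on the method. The 3 called circRNAs became 16 without a filter, 27 by DESeq2 (1 of the 3 among them; the others were among 2057 with no adjusted p there) and 0 by limma on log2(CPM + 1), where 304 had an unadjusted p under 0.05. They became 0 to 11 without 1 library, and the 0, without laying replicate 2, went with 265 at an unadjusted p under 0.05. Without a filter 452 circRNAs had an unadjusted p under 0.05 in place of 277 (228 to 324 without 1 library). Of the named circRNAs 11 were called without a filter, 17 by DESeq2 and 0 by limma on log2(CPM + 1) (0 to 7 without 1 library). The 14 called loci became 32 by DESeq2, 5 with only laying and caged libraries, 2 with the stricter filter and 0 by limma on log2(CPM + 1), where 195 had an unadjusted p under 0.05 (2 to 12 without 1 library). A changed set of rings changes spans, so of the 14 only 6 had a value without a filter (6 called, of 19 loci called in all), 8 with only these libraries (4 called) and 7 with the stricter filter (2 called). Of the named loci those 6, 4 and 2 were called there, and 0 by limma on log2(CPM + 1) (1 to 8 without 1 library), and of rings called against their locus 1 to 2 without 1 library. Limma on log2(CPM + 10) called 4 circRNAs and 14 loci.

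Replicate numbers did not pair the samples (correlations of same-numbered deviations 0.0141, -0.0059 and 0.0140). With a replicate block 2 circRNAs, 5 loci (all of them named) and 2 rings against their locus were called. The difference in the share of reads in loci of 2 or more rings, 0.116 percentage points, turned to -0.211 without laying replicate 2 and -0.104 without caged replicate 1 (-0.211 to 0.458 over the 6 libraries). Scaling by library totals moved the median log2 fold change by -0.03 and DESeq2 size factors by -0.06. A fit that was not robust, added after the data were seen, changed no count by over 1.5 times. Depth limits what rare rings can show.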

Other observations

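The counts of circRNAs with an unadjusted p under 0.05 differed between chromosomes, and whether they differ more than by chance was not tested. Those given are examples. On others, such as LG8 with 6.63% higher and 2.76% lower, the shares were close to those over all chromosomes. Rings of a locus are not independent, which adds to such differences. On LG16 1 of 106 tested circRNAs was higher in caged ovaries (0.943%) and 9 were lower (8.49%), and 5 of the 9 belong to the locus from 6919772 to 7012435. The median log2 fold change on LG16 was -0.06. On LG10 18 of 199 were higher (9.05%) and 6 lower (3.02%), with a median log2 fold change of 0.25. On LG5 14 of 173 were higher (8.09%) and 13 lower (7.51%), and on LG4 11 of 194 were higher (5.67%) and 1 lower (0.515%). Over all chromosomes 6.03% were higher and 2.58% lower.

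Rings with more reads had low p-values more often. Of the 169 circRNAs with a mean of 1000 CPM or more, 20 were higher and 10 lower at an unadjusted p under 0.05 (11.8% and 5.92%), and of the 1467 under 50 CPM 77 were higher and 19 lower (5.25% and 1.30%). Their median log2 fold changes were -0.04 and 0.17. By CPM, without TMM scaling, 19 of the 169 abundant ones were higher and 32 lower in every caged than in every laying library. Over all 3215 tested circRNAs 304 were higher (9.46%) and 243 lower (7.56%). The fitted test of the same 169 leaned the other way, with the 20 higher and 10 lower given above, so the balance depends on the measure.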
